A study of Mus musculus with 6 samples.

Results

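The neural lineage genes described here are 9 genes of the mouse nervous system, Sox1, Sox3, Sox11, Pax6, Pax3, Zic1, Neurog1, Neurod1 and Nes, picked by name from the 21639 gene entries of an RNA-Seq expression table, and each of them matched 1 entry. The study asked what the acidic patch, a charged surface of the histone variant H2A.Z, does in embryonic stem cells (ESCs) and in their differentiation. RNA was sequenced from 3 lines as ESCs (D0) and as embryoid bodies (EBs) after 3 days (D3), which gives 6 libraries, 1 per condition. Without replicate libraries no difference between lines on a given day could be tested, and those comparisons are between single libraries. The change from ESCs to EBs was tested across the 3 lines, as an addition made after the values had been seen.

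The cells were V6.5 ESCs (129SvJae and C57BL/6, male) by their labels, and the transgenes were placed by lentivirus in KH2 ESCs. The H2A.Z lines are called WT, KD (knockdown) and AP3 (acidic patch mutant) below. WT cells carried wild-type H2A.Z fused to YFP, and AP3 cells carried the same fusion with 3 acidic patch residues replaced by those of H2A. Both transgenes were driven by a doxycycline-inducible CMV promoter, and cells were sorted for YFP. A short hairpin against the 3′ UTR of the endogenous H2A.Z transcript was shared by all 3 lines, and the KD line is named for that depletion alone. ESCs were kept in serum and LIF and left without feeder fibroblasts for the last passage. EBs were formed on non-adherent plates without LIF, and the D3 samples are also labelled embryonic stem cells. H2afz, the targeted gene, stood at 279, 343 and 304 RPKM (read counts scaled for transcript length and for library size) in the ESCs of WT, KD and AP3 and at 258, 236 and 394 RPKM in their EBs. It was not lower in the KD library than in the WT library at D0, and "the library labelled KD" is therefore written wherever a direction is drawn from it. Transgene reads can count toward H2afz. The study reports, from qRT-PCR and western blots, that endogenous H2A.Z was depleted in ESCs with the hairpin.

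Sox1 and Sox3 are SoxB1 factors, HMG-box proteins that mark and maintain neural progenitors, and Sox11 is a SoxC factor of immature neurons. Pax6, Pax3 and Zic1 pattern the neural plate and its border. Neurog1 and Neurod1 are basic helix-loop-helix (bHLH) factors that bind E-box sequences and drive neuronal commitment and differentiation, and Nes encodes nestin, an intermediate filament of neural stem cells. In ESCs many such regulators are held at low levels with active and repressive histone marks on CG-rich promoters, and some are switched on when the cells leave pluripotency.

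The promoters of Sox1 and Sox11, which were higher in the EBs of every line, and of Neurod1, which was lower in the EBs of every line, are shown first. Sequences are from the RefSeq promoter table (build GRCm38.p6), placed on mm9 by exact match, and each is the 30 bases just before the start site on the gene's own strand, with CG dinucleotides in capitals. The Sox1 stretch is chr8:12395489-12395518 on the plus strand, the Sox11 stretch is chr12:28027584-28027613 on the minus strand and the Neurod1 stretch is chr2:79296794-79296823 on the minus strand.

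Sox1: cCGCGcccagtgtatctactccctccccac

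Sox11: tatgacaccctgataaCGagttgagagaga

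Neurod1: atataaccctagCGccCGCGccacCGggac

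The table held 8 windows for 7 of the 9 members, with 250 bases before and 50 bases after each start site, and 2 of these windows belonged to Pax6. Pax3 and Sox3 had no window. The Sox1 window held 37 CG dinucleotides, the Neurog1 window 32, the Zic1 window 31, the Neurod1 window 26, the Sox11 window 21, the Nes window 18 and the Pax6 windows 18 and 16. The median over all 32851 windows was 7, all 8 member windows were above it, and between 67.0% and 94.4% of all windows held fewer CG dinucleotides than a member's window. One Pax6 start site (chr2:105509053) and the Neurog1 start site (chr13:56353541) lie outside the spans that the expression table gives for these genes.

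**Figure D1:**
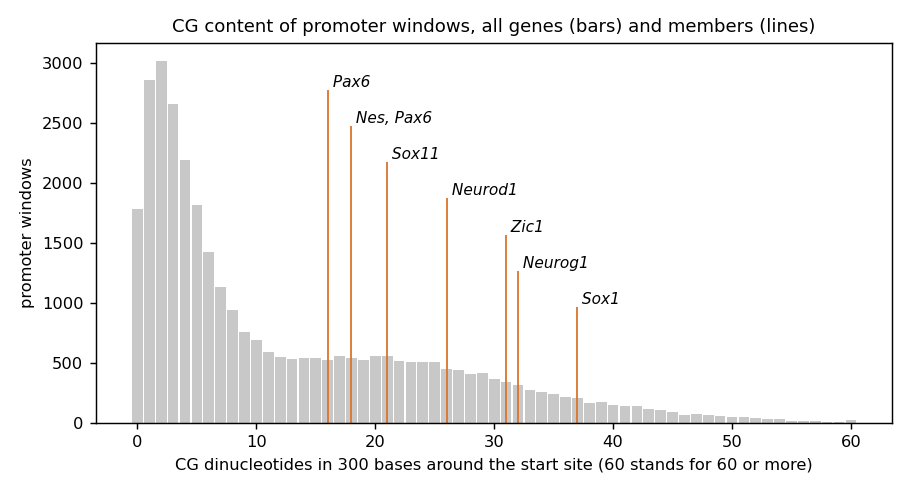
Number of promoter windows (vertical axis) by their count of CG dinucleotides in 300 bases (horizontal axis) for all 32851 windows (bars), with the windows of 7 members as lines whose heights carry no value. All 8 member windows, from 16 to 37, lie above the median of 7.

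E-boxes, the sites bound by Neurog1, Neurod1 and other bHLH factors, were searched in the 250 bases before each start on both strands as CANNTG, of which CAGATG and CAGCTG are special cases. CANNTG was found before Neurod1, Pax6, Sox11 and Zic1 and in 66.2% of all windows. CAGCTG was found before Sox11 and in 13.0% of all windows. CAGATG was not found in the window of any member and stood in 14.4% of all windows, and the Sox motif AACAAAG was not found in any of them either and stood in 5.03%. The E-boxes farthest from the start of Neurod1 (chr2:79297014-79297043) and of Sox11 (chr12:28027776-28027805) are shown as on the minus strand of both genes, with the E-box in capitals, because Neurod1 is itself an E-box binding factor and the Sox11 copy is the CAGCTG form. A match of letters describes the window and is not evidence of binding.

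Neurod1 E-box: gggaagacCATATGgcgcatgccggggagg

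Sox11 E-box: gggggacacgcgCAGCTGtgcgcactcgcg

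The 9 members fell into 6 genes that were expressed above 1 RPKM in every library (Sox1, Sox3, Sox11, Pax6, Neurod1 and Nes) and 3 that stayed below 0.4 RPKM in every library (Pax3, Zic1 and Neurog1). Low RPKM values come in steps of what a single read is worth, which put the depth of the libraries at 16.5 to 31.8 M reads, with the AP3 ESCs the deepest. At that depth Nes rested on 683 to 1064 estimated reads per library, Sox11 on 227 to 484, Neurod1 on 91 to 906, Pax6 on 101 to 233 and Sox3 on 48 to 198, whereas Neurog1 rested on 0 to 6, Pax3 on 3 to 11 and Zic1 on 6 to 28. Intervals given below are 95% intervals of these read counts, which cover counting error only and not differences between cultures, and since the reads carry no molecular identifiers, they need not be independent molecules. Sox1 was not in the annotation used for lengths, so no interval could be set for it, and its entry (chr8:12385771-12436731) also covers a separate entry, Gm5607.

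The label of ESCs was checked with markers. The 7 measured pluripotency markers summed to 2595, 2489 and 2540 RPKM in the WT, KD and AP3 libraries at D0 and to 2148, 1748 and 2131 RPKM at D3, and none of them was at 0. As a sum, pluripotency RNA was therefore still high in the EB libraries. Dppa5a, the most abundant marker, made up 897, 685 and 833 RPKM of it in WT, KD and AP3. From ESCs to EBs 2 of the 7 markers were past 1.5-fold lower in WT, 3 in the library labelled KD and 2 in AP3, and none was higher. Of all entries 30.7%, 30.2% and 31.0% were past 1.5-fold in either direction in the same order. In bulk RNA a smaller number of cells of a type and less RNA per cell cannot be told apart.

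**Figure D2:**
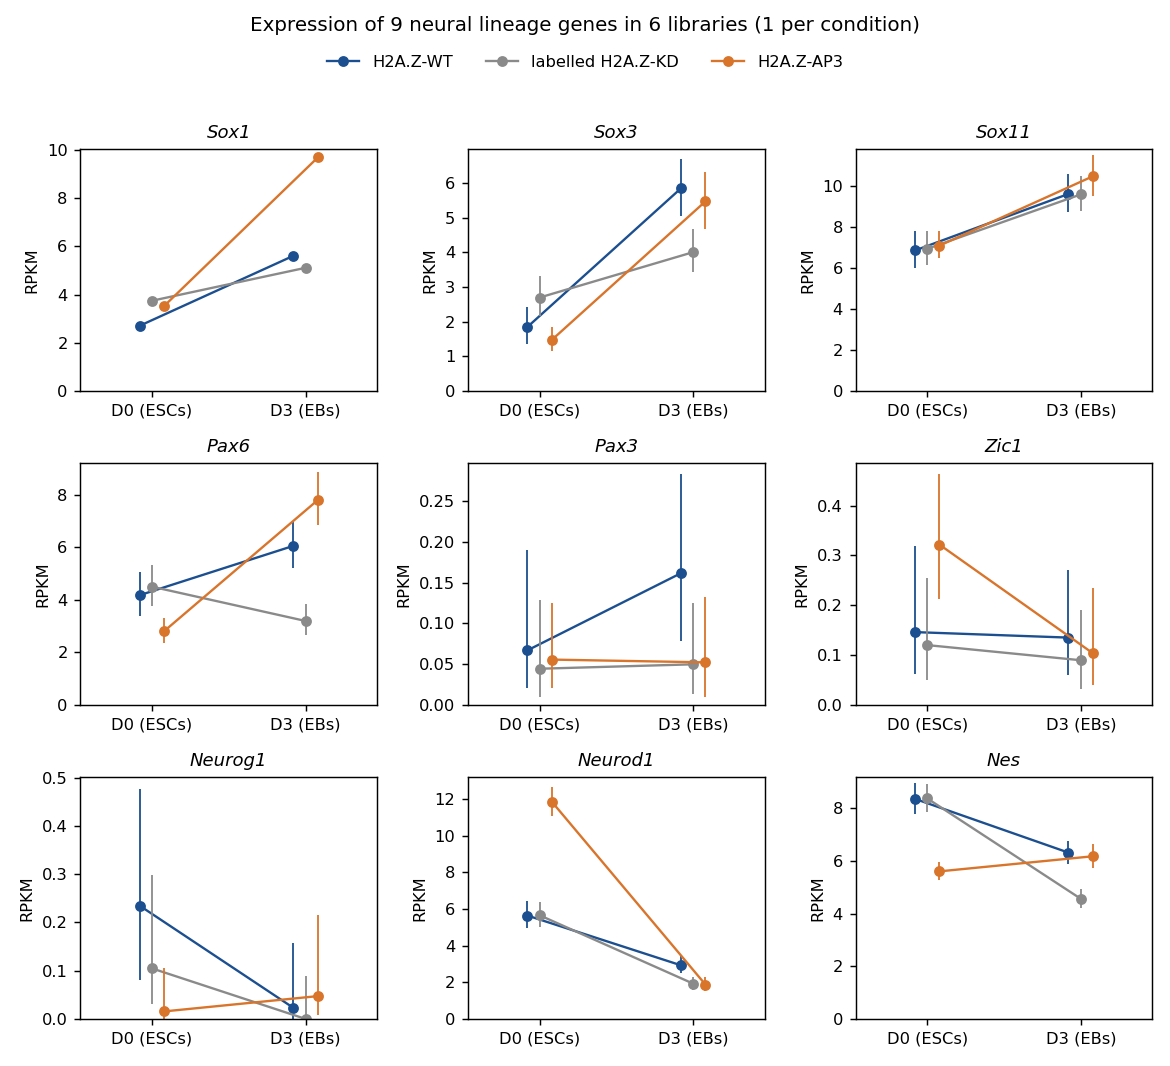
RPKM of each member (vertical axes, which differ between panels) in ESCs (D0) and EBs (D3) for the 3 lines, 1 library each, with 95% counting intervals as vertical lines (none for Sox1). Sox1, Sox3 and Sox11 are higher at D3 in each line, Neurod1 is lower at D3 in each line, and Pax3, Zic1 and Neurog1 stay below 0.4 RPKM.

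From ESCs to EBs, the levels of Sox1 and Sox3 were higher and that of Neurod1 was lower in every line, though Sox1 and Sox3 stayed within 1.5-fold in the library labelled KD, while Pax6 and Nes differed in direction between the lines. A change was called past 1.5-fold (0.58 on the log2 scale), with 0.001 RPKM added to both values. Of the 9 members, 5 passed it in WT (3 higher, 2 lower), where 30.7% of all entries did, 3 in the library labelled KD (none higher, 3 lower), where 30.2% of all entries did and 16.2% were past it lower, and 6 in AP3 (4 higher, 2 lower), where 31.0% of all entries did. The median log2 change of the members was 0.49, −0.42 and 0.56 in the same order, beside 0 over all entries in each line. Sox1, Sox3 and Sox11 were higher by some amount in all 3 lines, as were 19.1% of all entries, and Zic1 and Neurod1 were lower in all 3, as were 17.5% of all entries. Entries at 0 in every library, which cannot differ, are counted in the base of these shares. Neurod1 alone of the 9 was past 1.5-fold in the same direction in all 3 lines, and 5.32% of all entries were lower past 1.5-fold in all 3.

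The change common to the lines was tested with limma on log2(RPKM + 0.001), with day as the term and line as a block, which treats the 3 lines as replicates and leaves 2 residual degrees of freedom. The 11842 entries with a mean of at least 1 RPKM entered the fit, 6 of the 9 members among them, and 3 of these 6 passed an adjusted p of 0.05, where 10.6% of all entries tested did. Sox3 was higher in EBs by 1.38 ± 0.27 (SE) on the log2 scale (limma, Benjamini-Hochberg adjusted p = 0.0210) and Sox1 by 0.99 ± 0.21 (limma, adjusted p = 0.0284). Neurod1 had a log2 change of −1.72 ± 0.30 (limma, adjusted p = 0.0143). Each of these 3 genes moved in its direction in 3 of 3 lines. Sox11, with 0.51 ± 0.13 and the same direction in 3 of 3 lines, did not pass (limma, adjusted p = 0.0514), but passed with 0.1 RPKM added in place of 0.001 (limma, adjusted p = 0.0481) and not with 1 RPKM (limma, adjusted p = 0.0512). Pax6 with 0.50 ± 0.33 (limma, adjusted p = 0.378) and Nes with −0.38 ± 0.21 (limma, adjusted p = 0.286) did not pass, although Nes did without the AP3 libraries (limma, adjusted p = 0.0382). Both estimates depended on the lines used. Without the AP3 libraries Pax6 came to 0.02 and Nes to −0.64, and without the libraries labelled KD they came to 1.00 and −0.13. Without the WT libraries Sox1 and Sox3 no longer passed (limma, adjusted p = 0.183 and 0.153), and without the libraries labelled KD or those of AP3 they did. Without the filter on low values 1 entry and none of the 9 members passed. In the same fit the difference of a line from WT averaged over the days passed for no entry, with an unadjusted limma p under 0.05 for 682 entries in AP3, none of them a member, and for 303 in the libraries labelled KD, again without a member.

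Sox1, the earliest SoxB1 gene restricted to neural cells, stood at 2.70, 3.74 and 3.53 RPKM in the WT, KD and AP3 ESCs and at 5.61, 5.11 and 9.70 RPKM in the EBs. Every EB library was above every ESC library, and the AP3 EBs stood apart at the top. The share of all entries that separate the days in this way was not counted. The level was 2.07-fold higher in EBs than ESCs in WT, 1.37-fold in the library labelled KD and 2.75-fold in AP3.

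Sox3, an X-linked SoxB1 gene with 1 exon (chrX:58144541-58146605, minus strand), stood at 1.84, 2.70 and 1.47 RPKM in ESCs and at 5.85, 4.01 and 5.47 RPKM in EBs. Here too the EB and ESC libraries did not overlap, again without a share of all entries to set beside it. The level was 3.17-fold higher in EBs in WT (interval 2.32 to 4.48) and 3.72-fold higher in AP3 (2.81 to 4.91). It was 1.49-fold higher in the library labelled KD (1.15 to 1.96), whose interval lies below those of the other lines and which started from the highest ESC level.

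Sox11, a single-exon SoxC gene (chr12:28019133-28027583, minus strand), varied least across the lines. It stood at 6.84, 6.92 and 7.07 RPKM in ESCs and at 9.59, 9.57 and 10.5 RPKM in EBs, so the lines nearly coincided on each day. The level was 1.40-fold (1.19 to 1.66), 1.38-fold (1.19 to 1.61) and 1.48-fold (1.29 to 1.69) higher in EBs in WT, the library labelled KD and AP3. None of the 3 passed 1.5-fold, although each interval lies above 1. The annotated transcript is 2013 bases long whereas the table's entry spans 8451 bases, so the reads behind Sox11 may be understated.

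Pax6, a paired-box factor of forebrain and eye progenitors (chr2:105516602-105537226, plus strand, 33 annotated transcripts of 2 to 14 exons), changed differently in each line. It stood at 4.18, 4.50 and 2.81 RPKM in WT, KD and AP3 ESCs and at 6.05, 3.19 and 7.80 RPKM in EBs. The line that was lowest in ESCs was highest in EBs. EBs were 1.45-fold higher in WT (1.13 to 1.87) and 2.78-fold higher in AP3 (2.24 to 3.48), whereas in the library labelled KD the ratio of EBs to ESCs was 0.710 (0.551 to 0.916).

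Neurod1, a bHLH factor of neuronal differentiation that is also used by endocrine cells (chr2:79292798-79296793, minus strand, 2 or 3 exons), went the other way. It stood at 5.64, 5.66 and 11.8 RPKM in ESCs and at 2.93, 1.92 and 1.87 RPKM in EBs. All ESC libraries were above all EB libraries, a separation whose share over all entries was not counted. AP3 had both the highest value in ESCs and the lowest in EBs. The ratio of EBs to ESCs was 0.519 (0.419 to 0.642) in WT, 0.340 (0.271 to 0.423) in the library labelled KD and 0.158 (0.125 to 0.195) in AP3, and the interval of AP3 lies below those of the other lines.

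Nes (chr3:87775015-87784373, plus strand, 2 to 5 exons) stood at 8.36, 8.38 and 5.61 RPKM in ESCs and at 6.32, 4.56 and 6.18 RPKM in EBs. AP3 ESCs lay well below the other ESCs, and the library labelled KD lay below the other EBs. The ratio of EBs to ESCs was 0.756 (0.685 to 0.834) in WT, 0.545 (0.494 to 0.600) in the library labelled KD and 1.10 (1.00 to 1.21) in AP3. Only the library labelled KD passed 1.5-fold.

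**Figure D3:**
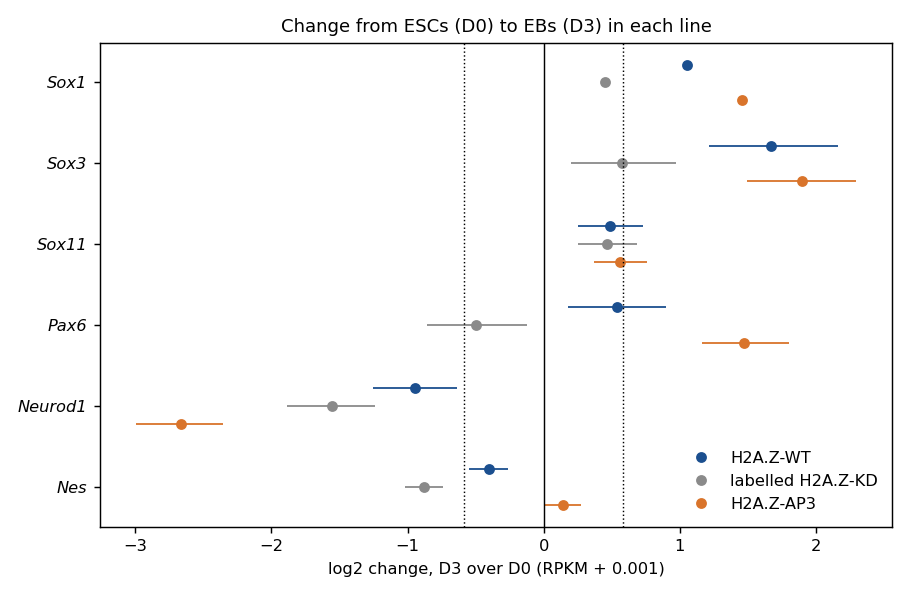
Log2 change from D0 to D3 (horizontal axis) of the 6 members above 1 RPKM in each line, with 95% counting intervals as horizontal lines (none for Sox1) and dotted lines at 1.5-fold. Neurod1 is past 1.5-fold lower in each line and Pax6 lies at 0.54, −0.49 and 1.47 in WT, the library labelled KD and AP3.

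The 3 low members gave too few reads for most differences. Pax3, a paired-box factor of the dorsal neural tube and neural crest (chr1:78097842-78193711, minus strand), stood at 0.0668, 0.0443 and 0.0555 RPKM in ESCs and at 0.161, 0.0497 and 0.0521 RPKM in EBs. The WT EBs, with 11 estimated reads, were the highest, and the interval of every Pax3 ratio included 1. Zic1, a zinc finger factor of the neural plate border (chr9:91255183-91260637, minus strand), stood at 0.146, 0.120 and 0.322 RPKM in ESCs and at 0.135, 0.0896 and 0.103 RPKM in EBs. Its 28 estimated reads in AP3 ESCs stood against 6 to 8 in the other libraries, and its ratio of EBs to ESCs in AP3 was 0.321 (0.114 to 0.826). Neurog1, a single-exon bHLH factor of sensory neuron progenitors (chr13:56351860-56353524, minus strand), was estimated at 6, 4 and 1 reads in ESCs and at 1, 0 and 2 reads in EBs. Its 0.234 RPKM in WT ESCs and 0.0155 RPKM in AP3 ESCs gave a ratio of 0.0663, with an interval of 0.00188 to 0.712, and the library labelled KD was listed at 0 at D3, so that calls against it depend on the 0.001 RPKM added. No call of Pax3, Zic1 or Neurog1 was kept when 1 RPKM was added instead of 0.001, which their low levels fix in advance.

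In ESCs, AP3 differed from WT mainly in Neurod1. Of the 9 members 3 passed 1.5-fold (Neurod1 and Zic1 higher, Neurog1 lower), where 25.0% of all entries did, and the median log2 change of the members was −0.26. Neurod1 was 2.10-fold higher (1.81 to 2.44) in AP3 than in WT. Pax6 and Nes lay just inside the threshold, with ratios of 0.673 (0.514 to 0.880) and 0.671 (0.612 to 0.736). The library labelled KD was close to WT for the same genes, with ratios of 1.00 for Neurod1 (0.837 to 1.20), 1.08 for Pax6 (0.828 to 1.41) and 1.00 for Nes (0.914 to 1.10). Only Neurog1 passed 1.5-fold in that comparison (1 of 9, lower), where 19.7% of all entries did and 10.7% were past it lower. Against the library labelled KD, 5 members passed it in AP3 (Neurod1 and Zic1 higher, and Sox3, Pax6 and Neurog1 lower), where 27.0% of all entries did. Sox3 then had a ratio of 0.546 (0.398 to 0.755) and Pax6 one of 0.625 (0.486 to 0.797). All 3 comparisons of ESCs share libraries with each other, so they are not independent.

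Markers of other cell types also differed between the ESC libraries. The 8 fibroblast markers summed to 29.2, 25.3 and 50.3 RPKM in WT, KD and AP3 ESCs. Of the 8, 6 were past 1.5-fold higher and 1 lower in AP3 than in WT, where 25.0% of all entries passed it in either direction. Col1a2, a collagen gene of fibroblasts, stood at 12.9, 11.8 and 22.5 RPKM. The 6 endoderm markers summed to 8.08, 12.3 and 27.7 RPKM in ESCs and to 36.5, 60.4 and 37.3 RPKM in EBs, and Gata4, an endoderm regulator, stood at 3.24, 4.94 and 12.1 RPKM in ESCs. The 6 mesoderm markers summed to no more than 4.16 RPKM in any library. At most 2 of the 8 fibroblast markers and 1 of the 6 in each other list were at 0 in a library. The part of these differences in the member values was not tested.

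**Figure D4:**
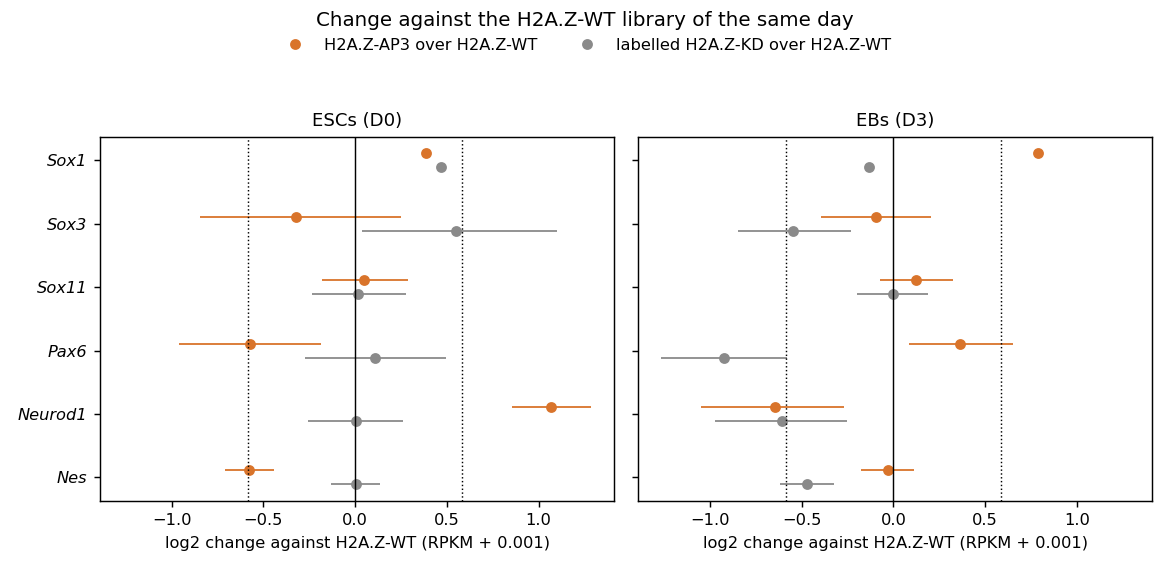
Log2 change against the WT library of the same day (horizontal axis) in ESCs (left) and EBs (right) for the 6 members above 1 RPKM, with 95% counting intervals as horizontal lines (none for Sox1) and dotted lines at 1.5-fold. Neurod1 in AP3 lies at 1.07 in ESCs and −0.64 in EBs, and all 6 members lie at or below 0 in the EB library labelled KD.

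In EBs, the library labelled KD was the one that stood low. It was below WT for all 9 members, as were 44.1% of all 21639 entries. That share counts entries at 0 in both libraries, which cannot be lower, so it understates the share among detected entries. The library labelled KD was the lowest of the 3 lines for 8 of the 9, Neurod1 being the exception. Of the 17925 entries above 0 in at least 1 EB library, 36.7% were lowest there. In size the differences were uneven: Sox11 had a ratio to WT of 0.998 (0.873 to 1.14), Nes 0.722 (0.651 to 0.801), Sox3 0.685 (0.556 to 0.852), Neurod1 0.658 (0.509 to 0.840) and Pax6 0.528 (0.416 to 0.669). Of the 9 members 5 passed 1.5-fold, all lower (Pax6, Neurod1, Pax3, Zic1 and Neurog1), where 20.7% of all entries passed it and 11.3% were past it lower. With 0.1 RPKM added, 2 of the 5 passed, and with 1 RPKM added Pax6 alone did. The pluripotency markers also summed lowest in this library and the endoderm markers highest. The fibroblast markers summed to 16.5, 10.7 and 12.2 RPKM in WT, KD and AP3 EBs, and 5 of the 8 were past 1.5-fold lower in the library labelled KD than in WT, none higher. Thy1, a surface antigen that fibroblasts share with other cells, made up much of these sums, at 9.19, 5.48 and 3.56 RPKM, and was highest in WT, as was Twist1, a mesenchymal factor at 3.83, 3.43 and 2.86 RPKM, whereas Col1a1, at 1.54, 0.923 and 2.57 RPKM, was highest in AP3. In AP3 against WT EBs 3 of the 8 were past 1.5-fold higher and 1 lower. The part of these markers in the result was not tested.

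AP3 EBs were near WT EBs for Sox3, Sox11 and Nes. Of the 9 members 4 passed 1.5-fold (Sox1 and Neurog1 higher, Neurod1 and Pax3 lower), where 22.1% of all entries did. Sox1 was 1.73-fold higher and Neurod1 had a ratio of 0.640 (0.484 to 0.829). Pax6 was 1.29-fold higher (1.06 to 1.57), and Sox3, Sox11 and Nes had ratios of 0.936 (0.760 to 1.15), 1.09 (0.950 to 1.25) and 0.978 (0.884 to 1.08). Against the library labelled KD, 8 of the 9 members were higher in AP3 EBs, as were 42.7% of all entries, those at 0 in both libraries again included. Of the 9 members 3 passed 1.5-fold, all higher (Sox1, Pax6 and Neurog1), where 22.7% of all entries passed it and 11.6% were past it higher. Pax6 was 2.44-fold higher (1.95 to 3.07), Sox1 1.90-fold, Sox3 1.37-fold (1.09 to 1.69) and Nes 1.35-fold. The EB comparisons share libraries in the same way.

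Other genes of the neural pathway were counted from lists around the members. Of 14 proneural bHLH genes, 12 were below 1 RPKM in every library, like Neurog1. The exceptions were Olig1, at 11.6 to 14.1 RPKM, and Olig2, at 6.55 to 9.18 RPKM, factors of oligodendrocyte and motor neuron progenitors, and neither passed 1.5-fold in any of the 9 comparisons. Of 28 neural plate and patterning genes, 8 were past 1.5-fold higher and 10 lower in AP3 than in WT ESCs, with a median log2 change of −0.02, where 25.0% of all entries passed it. Of the 13 with at least 1 RPKM in either library, 2 were higher and 5 lower. For such filtered counts, here and in the lists below, no share of all entries under the same filter is given. The shares that are given include entries below 1 RPKM. Sox2, the third SoxB1 gene and also a pluripotency factor, stood at 191, 196 and 110 RPKM in WT, KD and AP3 ESCs and at 186, 141 and 160 RPKM in EBs. It was thus lowest in the ESCs in which Sox3 and Pax6 were lowest. Sox4, a SoxC relative of Sox11, stood at 13.0 to 17.0 RPKM in ESCs and 23.0 to 26.0 RPKM in EBs.

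Of 12 neural progenitor genes, 2 were past 1.5-fold higher in AP3 than in WT ESCs and 5 higher and 1 lower in EBs, where 25.0% and 22.1% of all entries passed. Of the 8 with at least 1 RPKM, 1 was higher in ESCs, and 2 were higher and 1 lower in EBs. Vim, which encodes vimentin, the filament partner of nestin and also abundant in fibroblasts, stood at 87.1, 52.2 and 107 RPKM in ESCs and at 17.2, 14.5 and 30.9 RPKM in EBs, unlike Nes, which was lowest in the ESCs where Vim was highest. Msi1, an RNA-binding protein of neural stem cells, stayed between 17.6 and 21.9 RPKM. Of 12 measured early neuron genes, 5 were past 1.5-fold higher and none lower in AP3 EBs than ESCs, with a median log2 change of 0.51, while 2 were higher and 5 lower in the library labelled KD, with a median of −0.43, and 2 higher and 2 lower in WT, with a median of 0.10. All entries passed 1.5-fold in 31.0%, 30.2% and 30.7% of cases in the same order, with a median of 0. Among those with at least 1 RPKM in either library, 4 of 9 were higher and none lower in AP3, 1 of 8 was higher and 3 lower in the library labelled KD, and 1 of 9 was higher and 1 lower in WT. These counts have no share of all entries under that filter beside them. Stmn2, which encodes the microtubule regulator stathmin 2 and is the most abundant of the list, stood at 74.8, 80.2 and 67.7 RPKM in ESCs and at 50.8, 41.4 and 47.6 RPKM in EBs. Tubb3, a neuronal tubulin, stood at 21.5, 33.4 and 11.4 RPKM in ESCs and at 16.6, 15.0 and 21.3 RPKM in EBs, and Ina, a neuronal filament gene, at 20.1, 29.0 and 12.0 RPKM and at 16.8, 21.4 and 25.3 RPKM. All 3 were lowest in AP3 among the ESC libraries and highest in the library labelled KD. Among the EB libraries Tubb3 and Ina were highest in AP3 and Stmn2 was highest in WT, so the list had no single order of the lines.

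Of 5 measured neural crest genes, 3 were past 1.5-fold lower in WT EBs than ESCs, where 30.7% of all entries passed it in either direction, and of the 4 with at least 1 RPKM 2 were lower. In the library labelled KD 1 was higher and 3 were lower, and in AP3 1 was higher and none lower, with median log2 changes of −1.03, −0.98 and 0.20 in WT, the library labelled KD and AP3. Foxd3, which is also expressed in ESCs, stood between 2.62 and 6.05 RPKM. Of 8 repressors of neural genes, 3 were past 1.5-fold lower in WT EBs than ESCs, 2 in the library labelled KD and 4 in AP3, where 1 was higher, beside 30.7%, 30.2% and 31.0% of all entries in either direction, and all 8 had at least 1 RPKM. Rest, the repressor of neuronal genes in non-neural cells, stood at 42.7, 37.8 and 35.0 RPKM in ESCs and at 30.4, 33.2 and 27.1 RPKM in EBs, and did not pass 1.5-fold in any comparison.

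The genes whose pattern over the 6 libraries was most like that of a member were ranked by Pearson's r of log2(RPKM + 1) over 11781 entries, which with 6 libraries is a description only. Neurod1 was most like Tnfrsf1b (r = 0.997), a TNF receptor gene that stood at 3.54, 3.46 and 5.53 RPKM in ESCs and at 2.08, 1.63 and 1.73 RPKM in EBs. Sox1 was most like Glrx5 (r = 0.995), Sox3 like Tor3a (r = 0.997), Sox11 like Fam125b (r = 0.996), Pax6 like Cfl1 (r = 0.983) and Nes like Mkl1 (r = 0.995). Patterns as close as r = 0.95 were few for Nes (10 entries) and Pax6 (28) and common for Sox3 and Sox11 (196 each), Neurod1 (131) and Sox1 (78).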

How the data were processed

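The authors sequenced poly(A) RNA from 6 libraries and aligned reads to mm9, and the submitters' processing notes name TopHat 1.14, Bowtie 0.12.7 and Cufflinks 1.3.0. The authors deposited RPKM per gene, on which transcript length and library size are already divided out, with 6 columns of their own log2 ratios, which were not used. No read counts were used. Changes are the log2 of one RPKM value over another, each with 0.001 added, over all 21639 entries, called past 1.5-fold. Depth was estimated from 2502 genes whose annotated span matched the table within 10 bases. Reads per member were estimated from RPKM, depth and median transcript length (GENCODE, same assembly), with exact Poisson and conditional binomial intervals at 95%. Alternatives were other pseudocounts, a 1 RPKM filter, median centring, summed symbols and a 2-fold threshold. The change from ESCs to EBs was also tested with limma 3.58.1 (line as a block, entries with a mean of at least 1 RPKM), added after the values were seen. In simulated data this fit called 82 of 100 entries changed 2-fold, 99 of 100 changed 4-fold and 18 of 11642 unchanged. The simulated errors were normal and of the fitted size, without day changes that differ between lines, so they met the assumptions of the fit. Members and lists were chosen with earlier results of these data known. All members are named, and of each other list the 3 genes with the highest mean RPKM could be. Twist1, Zic2, Otx2 and Emx2 were named after their values were seen. On simulated data without replicate variation all 200 changed genes were called, with 6 of 1691 unchanged genes of at least 1 RPKM and 543 of 1805 below it. The changed genes were drawn from those well above 1 RPKM and were all changed 3-fold, so smaller changes and lower genes were not covered. Python 3.11.15, numpy 2.4.6, pandas 2.3.3 and scipy 1.17.1 were used.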

Additional observations from a re-analysis of the deposited data

Results flagged for a closer look

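For 3 members the same contrast was past 1.5-fold in opposite directions on different days or in different lines, and with 1 library per condition none of these differences was tested. Neurod1 in AP3 against WT had a log2 change of 1.07 in ESCs and −0.64 in EBs. Pax6 in AP3 against the library labelled KD had a log2 change of −0.68 in ESCs and 1.29 in EBs. Neurog1 in AP3 against WT had a log2 change of −3.83 in ESCs and 1.00 in EBs, and in AP3 against the library labelled KD one of −2.67 and 5.59. From ESCs to EBs it had one of −3.29 in WT, −6.72 in the library labelled KD and 1.54 in AP3. With 1 RPKM added in place of 0.001, Neurod1 in AP3 against WT EBs came to −0.45, Pax6 in AP3 against the library labelled KD in ESCs to −0.53 and every Neurog1 change to within 1.5-fold, so that none of these pairs was then past it on both sides. The Neurog1 values rest on 0 to 6 estimated reads per library.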

How the results depend on the processing

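No replicate block could be fitted, since each condition has 1 library, and the days were paired by line. In that limma fit 3 members passed for the change from ESCs to EBs, against 4 with 0.1 RPKM added or without pairing the lines, Sox11 being the fourth, 0 of 9 without the filter on low values, where 1 entry in all passed against 1258 (the cause was not tested), and 1 to 4 with each line left out, where 347 to 1827 entries passed. Adding 1 RPKM in place of 0.001 left 3 members past 1.5-fold from ESCs to EBs in WT, 1 in AP3 against WT ESCs, 0 in the library labelled KD against WT ESCs, 1 in AP3 against the library labelled KD in ESCs, 1 in AP3 against WT EBs and 1 in the library labelled KD against WT EBs. Asking for 1 RPKM in 1 of the 2 libraries left 3, 1, 0, 3, 2 and 2 in the same comparisons. A 2-fold threshold left 3, 2 and 2 in the last 3 of them. For the library labelled KD against WT EBs, adding 0.1 RPKM left 2 and centring on the median ratio left 3. Pax3, Zic1 and Neurog1, which are below 1 RPKM in every library, lose their calls with 1 RPKM added or the filter by construction. Adding 1 RPKM also took Sox3 and Pax6 in AP3 against the library labelled KD in ESCs, and Neurod1 in both comparisons with WT EBs, to within 1.5-fold. The other counts stayed within 1.5 times the one reported, and no change past 1.5-fold reversed. Centring moved log2 ratios by under 0.05 and changed the sign of 2 Sox11 changes close to 0. Adding 1 RPKM shifted 15 of the 81 member changes by over 1.5-fold and adding 0.1 RPKM shifted 11, all of them of Pax3, Zic1 or Neurog1. Depth limits Neurog1, Pax3 and Zic1, whose ratios mostly have intervals that include 1. The longest transcript in place of the median raised the reads behind Pax6 in WT ESCs from 101 to 579 and those behind Zic1 from 6.6 to 13.5. Of the 3 genes most like Sox1, 1 was kept with 0.1 RPKM added, and at least 2 were for the other 5 members.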

Other observations

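Zic2 and Otx2, neural plate genes that were picked from the lists after their values were seen, differed more between the ESC libraries than any of the 6 expressed members. Zic2, a relative of Zic1, stood at 9.76, 6.51 and 1.57 RPKM in WT, KD and AP3 ESCs and at 18.0, 16.0 and 20.4 RPKM in EBs. Otx2, a homeobox factor of the anterior neural plate and the epiblast, stood at 4.22, 5.14 and 1.37 RPKM in ESCs and at 22.3, 24.6 and 17.5 RPKM in EBs. For both genes the AP3 ESCs lay far below the other ESCs while the EBs of the 3 lines lay near each other, with log2 changes of AP3 against WT of −2.63 in ESCs and 0.18 in EBs for Zic2 and of −1.62 and −0.35 for Otx2. Other genes of that list went the other way. Of its 28 genes 8 were past 1.5-fold higher and 10 lower in AP3 than in WT ESCs, where 25.0% of all entries passed it. Emx2, also picked after its values were seen, stood at 0.420, 0.417 and 1.60 RPKM in WT, KD and AP3 ESCs. Its log2 change of AP3 against WT ESCs was 1.92. These differences are between single libraries and were not tested.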
